A study of Homo sapiens with 9 samples.

Results

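The E2F transcription factors and the RB pocket proteins were followed across a LINC00673 knockdown experiment in a human breast cancer line. The family was taken by gene symbol as E2F1 to E2F8, RB1 and RBL1, which is 10 of the 19930 genes in the table, and all 10 were measured in each library. E2F1, E2F2 and E2F3 are the activator members, 3 genes, and E2F4 to E2F8 are the repressor members, 5 genes. RBL2, the remaining pocket protein, and the dimer partners TFDP1 and TFDP2 are not members and are given beside them.

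The study asked what LINC00673, a long noncoding RNA, does in breast cancer cells. Total RNA was sequenced from cells labelled MDA-MB-453, an established breast cancer line, that were transfected with a lipid reagent and harvested after 48 h. Each of the 3 groups had 3 libraries: X453_NC is labelled control, and X453_1 and X453_2 are labelled Linc00673 knockdown. The labels do not say which siRNA each knockdown group received, nor whether the libraries of a group came from separate cultures, so the P values measure the spread between these libraries, which may be technical. All groups share the line and the transfection. LINC00673 itself was not analysed here, so the depth of the knockdown was not checked.

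The values are FPKM, fragments counted per kilobase of transcript and scaled to the depth of the library, so that levels can be set side by side between genes of different length. From the spacing of the lowest values, each library held an estimated 23440000 to 27960000 fragments. The labelled identity was only partly borne out by the data. MDA-MB-453 is known as a luminal line, yet FOXA1, a luminal transcription factor, reached at most 0.04 FPKM in the 9 libraries and GATA3, another, stayed below 1 FPKM, while FGFR4 and KRT18 were high. Of the 8 identity markers in the table, 4 had a mean of at least 1 FPKM, and the summed level of the 8 was 5850 to 6334 FPKM in X453_NC, 4729 to 5227 in X453_1 and 4822 to 5290 in X453_2. All 8 markers of mesenchymal breast lines, such as VIM and S100A4, had a mean of at least 1 FPKM, and their sum was 1195 to 1252, 1596 to 1672 and 1765 to 1848 FPKM in the same order. Of the 8, 7 rose and 1 fell in X453_1, and 6 rose and 1 fell in X453_2. Among all genes tested below, 32.1% rose and 32.3% fell in X453_1, and 26.0% rose and 44.8% fell in X453_2. S100A4, which together with VIM makes up most of the sum, went from 738 ± 22.3 FPKM in X453_NC to 1044 ± 42.1 in X453_1 and 1208 ± 52.6 in X453_2, while AXL fell from 13.6 ± 0.355 to 12.3 ± 0.076 and 12.6 ± 0.044 FPKM. The identity marker FGFR4 fell from 31.9 ± 1.01 to 21.8 ± 0.960 and 19.1 ± 1.13 FPKM. Of 5 fibroblast and immune markers in the table, COL1A2, DCN and PTPRC were below 1 FPKM, and CD68 and COL1A1 brought the sum to 36.8 to 38.2, 51.8 to 55.4 and 60.9 to 66.4 FPKM. These marker sums moved with the groups, and their part in the results below was not tested.

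E2F factors bind DNA, mostly as heterodimers with a DP protein, at the promoters of genes needed for DNA replication and mitosis. The pocket proteins RB1, RBL1 (p107) and RBL2 (p130) bind E2F factors and hold these promoters silent until cyclin-dependent kinases phosphorylate them late in G1. RB1 binds mainly the activators, whereas RBL1 and RBL2 work with E2F4 and E2F5 in the DREAM complex, which keeps cell cycle genes off in resting cells. E2F6 represses without a pocket protein, as part of a polycomb complex, and the atypical members E2F7 and E2F8 bind DNA without a DP partner. Loss of RB1 function is a frequent event in aggressive breast cancer, and blocking the kinases that inactivate it is an established treatment of hormone receptor positive disease.

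Several genes of the family carry E2F sites in their own promoters, and these are shown because the activators and RBL1 are known targets of the family to which they belong. The promoters are those of RefSeq on GRCh38.p14, from 250 bases before to 50 bases after the transcription start, 300 bases in all. The table held promoters for 8 of the 10 members, and not for E2F5 and E2F8. The motifs searched on both strands were TTTCCCGC, TTTCGCGC, TTTGCCGC and TTTGGCGC. At least 1 of them was found in 3.3% of 35116 promoters and in 5.1% of the 13092 promoters of the tested genes. Each activator had a match, as had RBL1, and E2F1 and RBL1 had 2 each. In the stretches of 40 bases below, written 5′ to 3′ on the strand of the gene, capitals mark a match on either strand.
E2F1: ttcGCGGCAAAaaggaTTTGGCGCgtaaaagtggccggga
E2F2: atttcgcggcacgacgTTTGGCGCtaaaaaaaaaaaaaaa
E2F3: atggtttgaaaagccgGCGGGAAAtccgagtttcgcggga
RBL1: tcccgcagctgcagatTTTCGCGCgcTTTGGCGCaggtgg
They lie at chr20:33686382-33686421 (minus strand) for E2F1, chr1:23531252-23531291 (minus strand) for E2F2, chr6:20401810-20401849 (plus strand) for E2F3 and chr20:37096000-37096039 (minus strand) for RBL1. The match nearest to the start began 20 bases before it in E2F1, 42 in E2F2, 53 in E2F3 and 16 in RBL1. The E2F3 match was in the first of its 2 promoters. No match was found in the windows of E2F4, E2F6, E2F7 and RB1, which says only that these letters are not there. A match is a description of sequence and not a measured binding site.

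In the control cells the family was led by E2F4. Its level in X453_NC was 57.0 ± 2.04 FPKM (SD, n = 3), which was 61.5% ± 1.28 of the summed FPKM of the 8 E2F genes. RBL2 followed at 30.9 FPKM, TFDP1 at 23.8 and RB1 at 12.2, with no overlap between neighbours in this order. E2F1, at 7.48 FPKM, and E2F3, at 7.09, overlapped in their libraries, and E2F5 lay below them at 5.83. E2F7 was at 5.02 FPKM and overlapped with TFDP2 at 4.92. The lowest levels were those of E2F6 (3.71), E2F2 (3.53), RBL1 (3.40) and E2F8 (3.03 FPKM), where E2F6 overlapped with E2F2 and E2F2 with RBL1, whereas E2F8 lay below RBL1. The 3 activators together made up 19.5% ± 0.673 of the E2F total, about as much as the 4 repressors other than E2F4, at 19.0% ± 0.864.

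**Figure D1:**
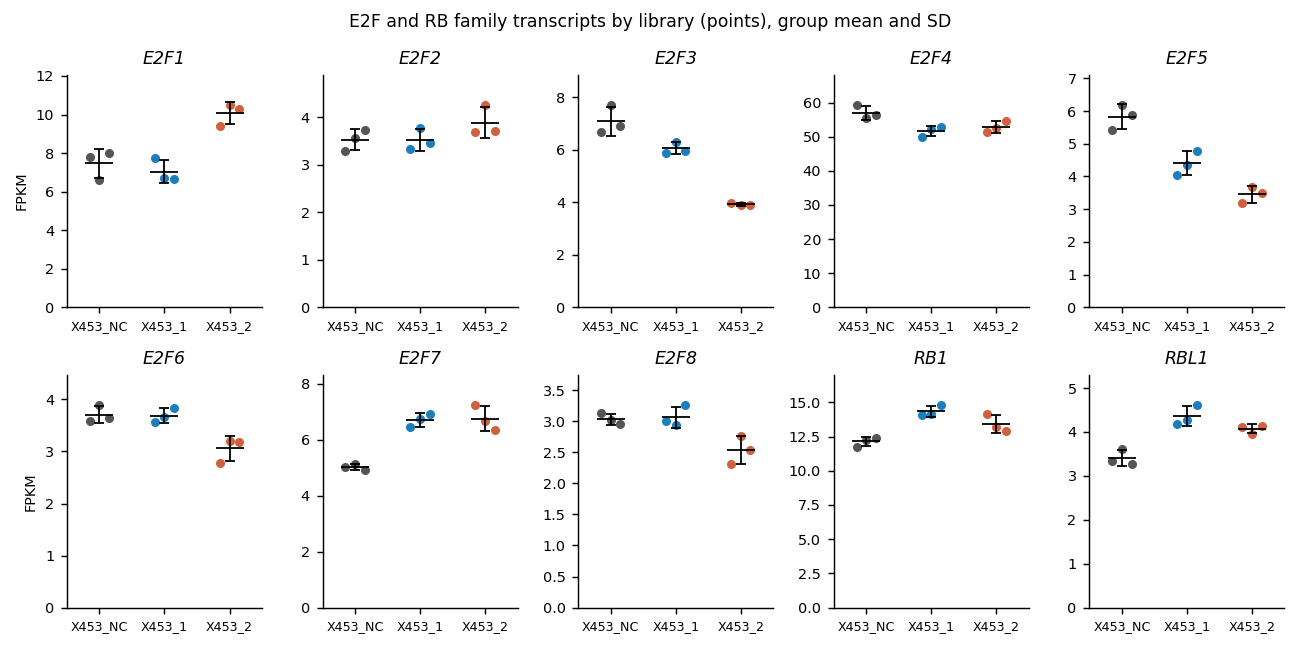
FPKM of the 10 members in each of the 9 libraries, 1 panel per gene with the y axis from 0. Points are libraries, and the black bars are the group mean and SD (n = 3). E2F3 and E2F5 step down from X453_NC over X453_1 to X453_2, E2F1 stands higher in X453_2 alone, and E2F7, RB1 and RBL1 lie higher in both knockdown groups than in X453_NC.

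Differences were tested with limma on log2(FPKM + 1) over 12884 genes, those whose mean reached 1 FPKM, among them all 10 members. A gene is said to have risen or fallen where its Benjamini-Hochberg adjusted P was at most 0.05, and to be called where it also met the criteria of the study, a fold of at least 1.3 (0.38 on the log2 scale) with an unadjusted P of at most 0.05. In X453_1 against X453_NC, 3 members rose (E2F7, RB1 and RBL1), 3 fell (E2F3, E2F4 and E2F5) and 4 did not pass. The background was high, since 32.1% of all tested genes rose and 32.3% fell, so that 3 and 3 of 10 members were close to it. None of the 10 members was called with limma in this comparison, where 11.1% of tested genes were called higher and 15.6% lower, although 6 members had an unadjusted P of at most 0.05.

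In X453_2 against X453_NC, 4 members rose (E2F1, E2F7, RB1 and RBL1), 5 fell (E2F3, E2F4, E2F5, E2F6 and E2F8) and E2F2 did not pass, beside 26.0% of tested genes that rose and 44.8% that fell. E2F1 was called higher and E2F3 and E2F5 were called lower, against a background of 11.0% of tested genes called higher and 23.1% lower, which 1 and 2 of 10 members do not exceed. Between the knockdown groups, X453_2 against X453_1, E2F1 rose and E2F3, E2F5, E2F6 and E2F8 fell, where 10.2% of tested genes rose and 33.9% fell. E2F1 was called higher there and E2F3 lower, against 2.19% of tested genes called higher and 5.45% lower. The libraries of the 2 groups did not overlap for 6 members in X453_1 against X453_NC (70.0% of tested genes), for 9 in X453_2 against X453_NC (73.0%) and for 6 in X453_2 against X453_1 (53.7%). Both knockdown comparisons use the same control libraries. With 3 libraries against 3, the exact two-sided permutation test cannot go below P = 0.1, which every member with separate libraries reached.

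The activators did not move as a class. As in any bulk sample, fewer cells that express a gene and less RNA per cell cannot be told apart. E2F1, which drives entry into S phase and can also induce cell death, stood at 7.79, 6.62 and 8.02 FPKM in X453_NC, at 7.75, 6.71 and 6.67 in X453_1 and at 9.42, 10.5 and 10.3 in X453_2. Each X453_2 library was above all others, whereas X453_1 and X453_NC overlapped. The gene is on chromosome 20 (32263292 to 32274210, minus strand, GRCh37), and an estimated 430 to 685 fragments per library lay behind these values.

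E2F1 rose by 34.6% in X453_2, a log2 fold change of 0.39 ± 0.076 (SE, adjusted P = 0.00113). In X453_1 its log2 fold change was -0.07 (95% interval -0.24 to 0.10, adjusted P = 0.414). The difference between the knockdown groups was itself past the threshold, at 0.46 ± 0.076 (adjusted P = 0.00118). The fold in X453_2 was close to the limit for a call: it fell below without replicate r1 of X453_NC (0.31) and without replicate r1 (0.36) or r2 (0.37) of X453_2, with an adjusted P of at most 0.00549 each time.

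E2F3, an activator that many cell types need for proliferation, showed the reverse order. Its levels were 6.66, 7.71 and 6.89 FPKM in X453_NC, 5.89, 6.31 and 5.96 in X453_1 and 3.98, 3.90 and 3.88 in X453_2. The 3 groups did not overlap, and X453_2 was lowest. E2F3 (chromosome 6, 20402137 to 20493945, plus strand, GRCh37) fell by 14.6% in X453_1 (log2 -0.20 ± 0.054, adjusted P = 0.00928) and by 44.7% in X453_2 (-0.71 ± 0.054, adjusted P = 1.6e-06), and the difference between the knockdown groups was -0.52 ± 0.054 (adjusted P = 0.000104). E2F2, the third activator, was at 3.53 ± 0.217 FPKM in X453_NC, 3.52 ± 0.226 in X453_1 and 3.89 ± 0.323 in X453_2 (SD, n = 3). Its libraries overlapped in every comparison, and the 95% interval of its log2 fold change was -0.15 to 0.14 in X453_1 and -0.04 to 0.25 in X453_2.

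The share of E2F1 among the activators was higher in X453_2. The summed activator FPKM was 18.1 ± 0.479 in X453_NC, 16.6 ± 0.465 in X453_1 and 17.9 ± 0.785 in X453_2. E2F1 supplied 41.3% ± 3.75 of it in X453_NC, 42.4% ± 2.96 in X453_1 and 56.3% ± 1.20 in X453_2.

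Among the repressors, E2F4 and E2F5, the usual DREAM partners of RBL1 and RBL2, were lower in both knockdown groups. E2F5 was at 5.42, 6.19 and 5.88 FPKM in X453_NC, 4.06, 4.36 and 4.79 in X453_1 and 3.19, 3.69 and 3.48 in X453_2. The 3 groups again did not overlap and stood in the same order as for E2F3. E2F5 fell by 24.5% in X453_1 (log2 -0.34 ± 0.068, adjusted P = 0.00149) and by 40.8% in X453_2 (-0.62 ± 0.068, adjusted P = 2.15e-05), and it was lower in X453_2 than in X453_1 by a log2 difference of -0.28 ± 0.068 (adjusted P = 0.00859). In X453_1 it fell short of the fold limit and was called without the unsuffixed replicate of X453_NC (-0.38) or without replicate r2 of X453_1 (-0.39). It rested on the fewest reads of the family, an estimated 131 to 263 fragments per library.

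E2F4 was at 59.3, 55.4 and 56.4 FPKM in X453_NC, 50.0, 52.2 and 53.0 in X453_1 and 51.3, 52.7 and 54.6 in X453_2. All 6 knockdown libraries were below the control libraries, and the groups X453_1 and X453_2 overlapped. The fall was 9.4% in X453_1 (log2 -0.14 ± 0.038, adjusted P = 0.0087) and 7.3% in X453_2 (-0.11 ± 0.038, adjusted P = 0.0267). The direction did not hold under a correction for GC content, as given below, and the adjusted P in X453_2 was above 0.05 without the unsuffixed replicate of X453_NC (0.0988), the unsuffixed replicate of X453_2 (0.081) or replicate r1 of X453_2 (0.0648).

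E2F6, the polycomb-linked repressor, was at 3.59, 3.89 and 3.65 FPKM in X453_NC, 3.56, 3.66 and 3.84 in X453_1 and 2.78, 3.21 and 3.19 in X453_2. Only X453_2 was apart, with no overlap with either other group. It fell by 17.5% in X453_2 (log2 -0.22 ± 0.057, adjusted P = 0.0069), and its log2 fold change in X453_1 was -0.01 (95% interval -0.14 to 0.12). The level in X453_2 was also below that in X453_1 (-0.21 ± 0.057, adjusted P = 0.0154). Without replicate r2 of X453_1 the adjusted P of this difference was 0.0568.

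The atypical repressors E2F7 and E2F8, which normally act together to shut off E2F1 and replication genes late in S phase, did not move together. E2F7 rose in both knockdown groups. E2F8 passed in X453_2 alone, and not after median ratio scaling (-0.11, adjusted P = 0.118). E2F7 was at 5.02, 5.13 and 4.91 FPKM in X453_NC, 6.44, 6.74 and 6.91 in X453_1 and 7.23, 6.65 and 6.36 in X453_2. Both knockdown groups were wholly above X453_NC and overlapped with each other. E2F7 (chromosome 12, 77415026 to 77459360, minus strand, GRCh37) rose by 33.4% in X453_1 (log2 0.35 ± 0.050, adjusted P = 0.000159) and by 34.4% in X453_2 (0.36 ± 0.050, adjusted P = 0.000107). These folds of FPKM are above 1.3, yet the value of 1 FPKM added before the logarithm took them just below the limit, and E2F7 was called in both comparisons with 0.1 FPKM added (0.41 and 0.42). In X453_2 it was also called after median ratio scaling (0.454), with the GC correction (0.405) and without replicate r2 of that group (0.40).

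E2F8 was at 3.13, 3.02 and 2.95 FPKM in X453_NC, 3.0, 2.94 and 3.26 in X453_1 and 2.31, 2.77 and 2.54 in X453_2. Its X453_2 libraries were below all others. It fell by 16.3% in X453_2 (log2 -0.19 ± 0.061, adjusted P = 0.0176) and had a log2 fold change of 0.01 (95% interval -0.12 to 0.15) in X453_1. The adjusted P of this fall was above 0.05 without the unsuffixed replicate of X453_NC (0.0546) or of X453_2 (0.0652). The difference from X453_1 was -0.20 ± 0.061 (adjusted P = 0.023), and it did not pass without replicate r2 of X453_1 (adjusted P = 0.0848), nor without the unsuffixed replicate (0.0707) or replicate r2 (0.0536) of X453_2. E2F7 and E2F8 together made up 8.69% ± 0.200 of the E2F total in X453_NC, 11.3% ± 0.215 in X453_1 and 10.7% ± 0.628 in X453_2 (SD, n = 3).

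The pocket protein members were higher in both knockdown groups. RB1, the retinoblastoma tumor suppressor, was at 11.8, 12.3 and 12.4 FPKM in X453_NC, 14.1, 14.1 and 14.8 in X453_1 and 14.1, 13.2 and 12.9 in X453_2. Every knockdown library was above every control library, and X453_1 and X453_2 overlapped. RB1 (chromosome 13, 48877883 to 49056026, plus strand, GRCh37) rose by 17.9% in X453_1 (log2 0.22 ± 0.043, adjusted P = 0.00119) and by 10.3% in X453_2 (0.13 ± 0.043, adjusted P = 0.0194), and the second rise did not pass without the unsuffixed replicate of X453_NC (adjusted P = 0.0675) or of X453_2 (0.0661). The log2 difference between the knockdown groups was -0.09 (adjusted P = 0.112), and it passed only without the unsuffixed replicate of X453_2 (-0.13, adjusted P = 0.0333).

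RBL1 was at 3.33, 3.61 and 3.27 FPKM in X453_NC, 4.19, 4.28 and 4.61 in X453_1 and 4.12, 3.95 and 4.14 in X453_2. The knockdown libraries were all above the control libraries. RBL1 (chromosome 20, 35624752 to 35724618, minus strand, GRCh37) rose by 28.1% in X453_1 (log2 0.28 ± 0.051, adjusted P = 0.000778) and by 19.6% in X453_2 (0.20 ± 0.051, adjusted P = 0.00496). Its X453_2 libraries all lay below those of X453_1, but the difference of -0.08 did not pass (adjusted P = 0.235). RBL2, at 30.9 ± 1.01 FPKM in X453_NC, 32.9 ± 0.556 in X453_1 and 32.0 ± 2.08 in X453_2, did not pass in either comparison (log2 0.08, adjusted P = 0.134, and 0.04, adjusted P = 0.414). In X453_2 it did pass after median ratio scaling (0.15, adjusted P = 0.0157) and with the GC correction (0.09, adjusted P = 0.0317). It remained the most abundant pocket protein transcript, with 66.5% ± 0.245 of the summed pocket protein FPKM in X453_NC, 63.7% ± 0.394 in X453_1 and 64.6% ± 0.619 in X453_2.

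**Figure D2:**
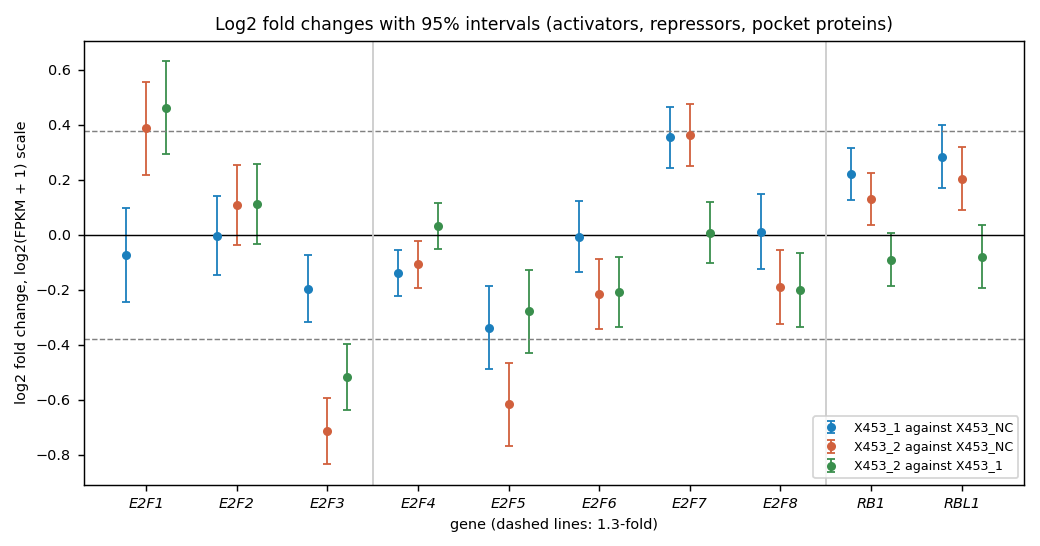
Log2 fold change (y axis, on the log2(FPKM + 1) scale) of each member in the 3 comparisons, with 95% intervals from limma and dashed lines at the 1.3-fold limit. Grey lines part the activators, repressors and pocket proteins. Within the activators E2F1 (0.39) and E2F3 (-0.71) lie on opposite sides in X453_2 against X453_NC, and within the repressors E2F7 lies above 0 while E2F5 lies below.

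Activators and repressors were compared by a level, the mean log2(FPKM + 1) of E2F1 to E2F3 minus that of E2F4 to E2F8. It was -0.36, -0.37 and -0.28 in the X453_NC libraries, -0.34, -0.37 and -0.50 in X453_1 and -0.25, -0.24 and -0.27 in X453_2. X453_1 and X453_NC overlapped. The X453_2 libraries were above those of X453_NC, the nearest pair standing at -0.27 and -0.28. The difference from X453_NC was -0.07 in X453_1, as large as the pooled SD of 0.067, and 0.08 in X453_2, with a pooled SD of 0.037. Leaving out 1 library gave -0.10 to -0.02 in X453_1 and 0.06 to 0.11 in X453_2. With the GC correction described below the difference in X453_1 turned to 0.07, and that in X453_2 was 0.19. These differences are descriptions and were not tested.

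The difference between the classes was small beside the spread within each. In X453_2 against X453_NC the log2 fold changes of the activators averaged -0.07 and ran from -0.71 to 0.39, and those of the repressors averaged -0.15 and ran from -0.62 to 0.36. In X453_1 the averages were -0.09 for the activators and -0.02 for the repressors. The pocket protein members stood at 0.22 and 0.28 in X453_1 and at 0.13 and 0.20 in X453_2. In summed FPKM, the 4 repressors other than E2F4 went from 17.6 ± 0.563 in X453_NC to 17.9 ± 0.880 in X453_1 and 15.8 ± 0.451 in X453_2.

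**Figure D3:**
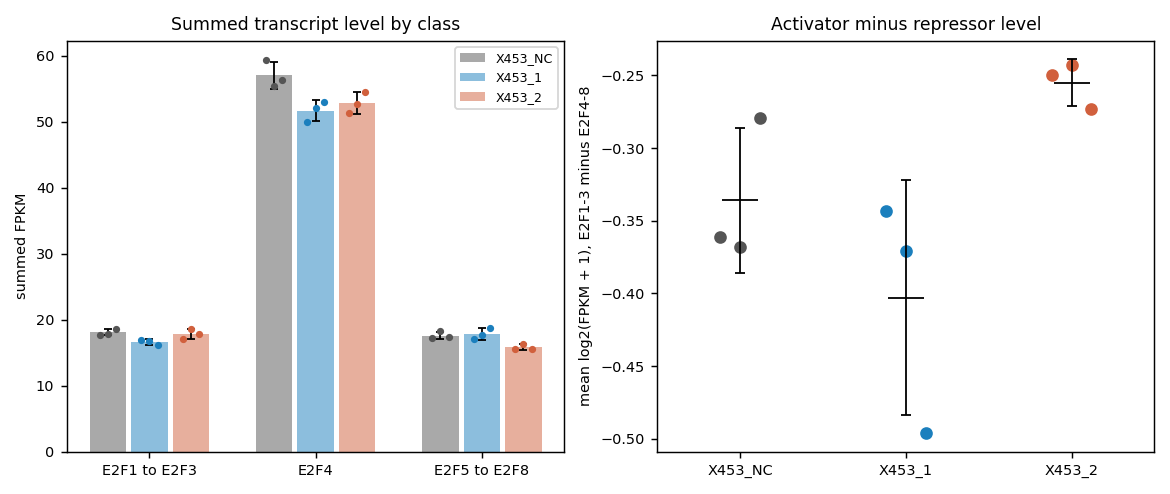
Left, summed FPKM of E2F1 to E2F3, of E2F4 and of E2F5 to E2F8 by group, as bars from 0 with the SD and the 3 libraries as points. Right, the activator minus repressor level on the log2(FPKM + 1) scale in each library, with the group mean and SD. E2F4 is the largest bar in every group, and the level in X453_2, -0.25 ± 0.016, lies above the control mean of -0.34 ± 0.050.

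The scaling of the libraries and the GC content of the genes bore on part of these results. Over all tested genes, the log2 fold changes had a median of 0.00 in X453_1 and -0.10 in X453_2 against X453_NC, and -0.08 in X453_2 against X453_1. After median ratio scaling, which centers the libraries, the medians were 0.00, 0.00 and 0.01, and 34.5% of tested genes rose and 35.1% fell in X453_2 against X453_NC. In that comparison 5 members then rose and 2 fell, in place of 4 and 5. E2F4 (-0.003, adjusted P = 0.95), E2F6 (-0.13, adjusted P = 0.0513) and E2F8 (-0.11, adjusted P = 0.118) no longer passed, and E2F2 passed (0.19, adjusted P = 0.0204). The falls of E2F3 (-0.63) and E2F5 (-0.53) and the rises of E2F1 (0.48), E2F7 (0.45), RB1 (0.23) and RBL1 (0.29) passed under both scalings. Between the knockdown groups, 3 members rose and 2 fell after scaling, in place of 1 and 4. Of all tested genes, 21.0% rose and 17.0% fell there after scaling, in place of 10.2% and 33.9%. E2F6 (-0.13, adjusted P = 0.096) and E2F8 (-0.12, adjusted P = 0.131) no longer passed, and E2F2 (0.20, adjusted P = 0.0348) and E2F4 (0.14, adjusted P = 0.0216) passed.

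Genes rich in GC were lower in both knockdown groups. With the tested genes divided into 5 equal bins by GC content, the highest bin, from 58.6% to 73.9%, had a median log2 fold change of -0.29 in X453_1 and -0.34 in X453_2, against 0.08 and -0.05 in the lowest bin. E2F1, with 62.5% GC in its longest transcript, and E2F4, with 59.3%, belong to the highest bin, and E2F5, RB1 and RBL1 to the lowest. With the trend on GC removed, E2F1 stood at 0.23 ± 0.052 in X453_1 (adjusted P = 0.00184) and at 0.73 ± 0.052 in X453_2 (adjusted P = 1.37e-07), so that its direction in X453_1 turned. E2F4 turned too, to 0.03 ± 0.034 (adjusted P = 0.433) and 0.12 ± 0.034 (adjusted P = 0.00619). E2F3 (-0.26 and -0.68), E2F5 (-0.42 and -0.56), E2F7 (0.28 and 0.40), RB1 (0.13 and 0.18) and RBL1 (0.21 and 0.26) kept their direction and passed in X453_1 and X453_2. E2F2 passed in X453_2 (0.29, adjusted P = 0.00101), where 6 members rose and 4 fell with the correction, beside 37.5% and 37.1% of all tested genes. Between the knockdown groups, E2F5 went from -0.28 to -0.14 and no longer passed (adjusted P = 0.0745). Nor did E2F6 (-0.10, adjusted P = 0.159) and E2F8 (-0.10, adjusted P = 0.202). E2F2 (0.18, adjusted P = 0.0298), E2F4 (0.09, adjusted P = 0.0433) and E2F7 (0.12, adjusted P = 0.0304) newly passed. Of all tested genes, 25.6% rose and 22.4% fell there. The difference of E2F1 between the knockdown groups was 0.50 with the correction and 0.46 without it. The correction also centered the libraries, and the median over all tested genes in X453_2 against X453_NC went from -0.10 to 0.002. Median ratio scaling alone put E2F4 at -0.14 in X453_1 and -0.003 in X453_2 against X453_NC, and E2F5 at -0.19 between the knockdown groups. Whether GC content had a part in the level of any member was not tested.

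**Figure D4:**
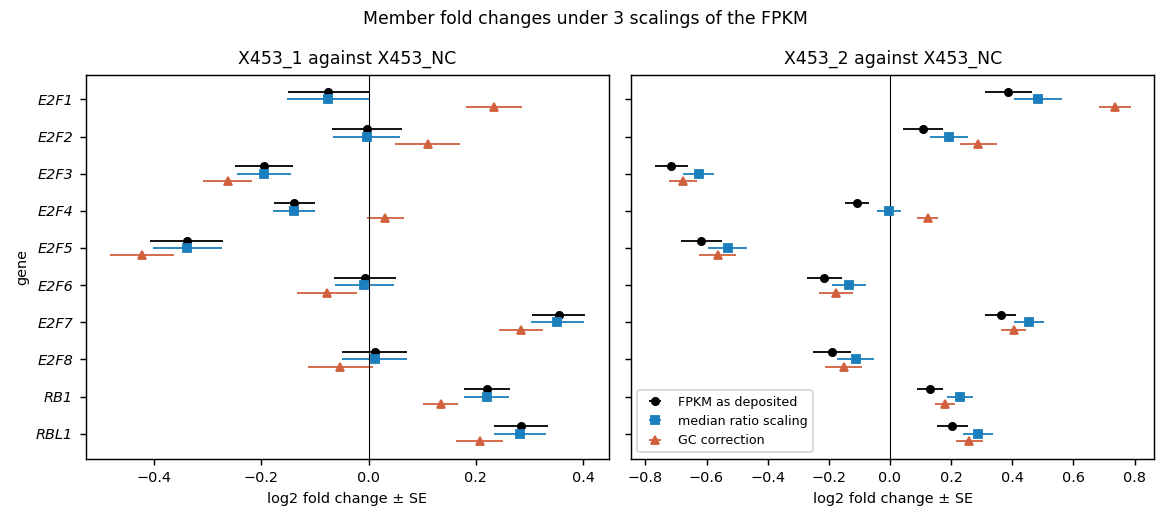
Log2 fold change with its SE (x axis) of each member in both knockdown comparisons, for FPKM as deposited, after median ratio scaling and after the correction for GC content. E2F4 crosses 0 between the settings in both panels and E2F1 does so in X453_1, whereas E2F3, E2F5, E2F7, RB1 and RBL1 stay on their side.

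The genes around the family were followed in lists drawn up from general knowledge. Of the DP partners, TFDP1 was at 23.8 ± 0.979 FPKM in X453_NC and did not pass (log2 -0.04, adjusted P = 0.389, in X453_1 and -0.09, adjusted P = 0.0504, in X453_2). TFDP2 fell by 13.5% in X453_1 (log2 -0.17 ± 0.042, adjusted P = 0.00478) and by 24.6% in X453_2 (-0.33 ± 0.042, adjusted P = 5.7e-05). Of the 9 DREAM and MuvB genes, which include RBL2, 4 rose and 1 fell in X453_1, and 3 rose and 2 fell in X453_2. Beside this list, 32.1% of all tested genes rose and 32.3% fell in X453_1, and 26.0% rose and 44.8% fell in X453_2. FOXM1, which takes over the promoters of mitotic genes in G2, was the gene of this list called in both comparisons, at 25.1 ± 0.341 FPKM in X453_NC, 15.1 ± 0.551 in X453_1 and 15.7 ± 1.05 in X453_2 (log2 -0.69 and -0.65, adjusted P = 1.5e-06 and 1.42e-06).

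Of the 10 genes of the E2F6 polycomb complex, 3 rose and 4 fell in X453_1, and 1 rose and 6 fell in X453_2. For this and the following lists, 32.1% of all tested genes rose and 32.3% fell in X453_1, and 26.0% and 44.8% did in X453_2. RING1, a ubiquitin ligase of the complex, fell from 14.6 ± 0.608 FPKM to 6.04 ± 0.821 in X453_1 and 5.90 ± 0.664 in X453_2 (log2 -1.15 and -1.18, adjusted P = 3.3e-06 and 1.83e-06). RYBP, a subunit that binds RING1, rose from 10.1 ± 0.345 to 16.04 ± 0.269 and 16.7 ± 1.41 FPKM (0.62 and 0.67, adjusted P = 6.77e-06 and 2.68e-06). Of the 11 corepressors that pocket proteins recruit, 5 rose and 3 fell in X453_1, and 5 rose and 5 fell in X453_2. HDAC1, the histone deacetylase that RB1 brings to E2F promoters, rose from 141 ± 3.68 to 191 ± 2.96 and 208 ± 2.20 FPKM (0.43 and 0.55, adjusted P = 8.6e-07 and 1.01e-07). Of the 8 genes that act on the turnover of E2F factors or their partners, 3 rose and 3 fell in X453_1 and none rose and 4 fell in X453_2 by the adjusted P of limma, and 0 rose at an unadjusted P of at most 0.05. In X453_2, 2 of these genes rose and 3 fell after median ratio scaling, beside 34.5% and 35.1% of all tested genes. With the GC trend removed 2 rose and 4 fell there, beside 37.5% and 37.1%. FZR1, the CDH1 activator of the anaphase-promoting complex, fell from 22.9 ± 1.51 to 16.7 ± 0.609 and 15.2 ± 1.03 FPKM (-0.43 and -0.56, adjusted P = 0.000118 and 1.52e-05). With the GC trend removed, 2 of the 8 turnover genes rose and 1 fell in X453_1, beside 35.2% and 33.5% of all tested genes. None of the 8 was then called lower in X453_1, so FZR1 lost its call there.

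The kinases that inactivate the pocket proteins, and their inhibitors, all passed the test where they could be tested, although with the GC trend removed 12 of 14 did so in X453_1. In that setting 35.2% of all tested genes rose and 33.5% fell. Of 15 genes, 14 were tested, and 8 (57.1%) rose and 6 (42.9%) fell in each knockdown comparison. Beside them, 32.1% of all tested genes rose and 32.3% fell in X453_1, and 26.0% rose and 44.8% fell in X453_2. The median log2 fold change of the list was 0.18 in X453_1 and 0.22 in X453_2. CDKN1A, the p21 inhibitor of these kinases, went from 15.4 ± 0.320 FPKM in X453_NC to 30.3 ± 1.44 in X453_1 and 36.2 ± 1.41 in X453_2 (log2 0.93 and 1.18, adjusted P = 1.13e-07 and 1.49e-08). CCNE1, the cyclin E that completes the inactivation of RB1 and is itself an E2F target, went from 1.64 ± 0.397 to 3.05 ± 0.206 and 3.90 ± 0.244 FPKM (0.63 and 0.91, adjusted P = 0.000391 and 2.67e-05). The control libraries of CCNE1 stood at 1.83, 1.18 and 1.9 FPKM, near the filter of 1 FPKM. An inhibitor and a cyclin that act on RB1 in opposite ways thus both rose.

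Targets of the family were listed by the phase in which they act. Of 59 G1/S genes that E2F factors are known to drive, 35 rose and 12 fell in X453_1, and 35 rose and 13 fell in X453_2. The medians were 0.19 and 0.21, beside 0.00 and -0.10 for all tested genes. Of these, 32.1% rose and 32.3% fell in X453_1, and 26.0% rose and 44.8% fell in X453_2. MCM4, a subunit of the replicative helicase, went from 23.96 ± 0.564 FPKM to 46.6 ± 1.77 and 48.7 ± 1.94 (log2 0.93 and 0.99, adjusted P = 8.05e-08 and 2.67e-08). CDT1, which loads that helicase, fell from 36.1 ± 2.17 to 16.2 ± 0.848 and 21.7 ± 1.51 FPKM (-1.11 and -0.71, adjusted P = 3.84e-07 and 3.73e-06). In all, 12 genes of the list were called in the same direction in both comparisons, 10 higher and 2 lower, beside 7.65% of all tested genes called higher in both and 13.6% called lower in both, comparisons that share their controls. Of the 70 promoters of these genes, 42.9% held a motif of the kind shown above, against 5.1% for the tested genes. Because the list was chosen as known E2F targets, this share describes the choice and does not bear on the changes in level.

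Of 38 G2/M genes controlled by DREAM and its activating counterpart, 15 rose and 7 fell in X453_1, with a median of 0.03. In that comparison 32.1% of all tested genes rose and 32.3% fell. The balance of the list turned with the GC trend removed, where 11 rose and 13 fell and the median was -0.02. In that setting 35.2% of all tested genes rose and 33.5% fell. In X453_2, 4 of the 38 rose and 28 fell, with a median of -0.31, and 12 (31.6%) were called lower. Of all tested genes, 26.0% rose, 44.8% fell and 23.1% were called lower there. In X453_2 against X453_1, 10.2% of all tested genes rose, 33.9% fell and 5.45% were called lower. None of the 38 rose there by the adjusted P of limma, and 0 did at an unadjusted P of at most 0.05. Of the 38, 27 fell, and the median was -0.26, beside -0.08 for all tested genes. After median ratio scaling 2 rose and 23 fell there with a median of -0.175, beside 21.0% and 17.0% of all tested genes. With the GC trend removed 2 rose and 24 fell there with a median of -0.14, beside 25.6% and 22.4%. The calls lower went from 13 to 8 and 5, and the share of all tested genes called lower was not worked out for these 2 settings. CDC25C, the phosphatase that switches on the mitotic kinase, was called in both knockdown comparisons and fell from 8.21 ± 0.210 FPKM to 5.74 ± 0.236 and 5.04 ± 0.462 (-0.45 and -0.61, adjusted P = 9.22e-05 and 8.75e-06). After median ratio scaling the G2/M counts in X453_2 against X453_NC were 9 that rose and 22 that fell, and the G1/S counts were 41 and 9. With the GC trend removed they were 7 and 26, and 41 and 10. Of all tested genes, 34.5% rose and 35.1% fell there after median ratio scaling, and 37.5% and 37.1% did with the GC trend removed. The motif was found in 10.5% of the 38 promoters of the G2/M genes.

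**Figure D5:**
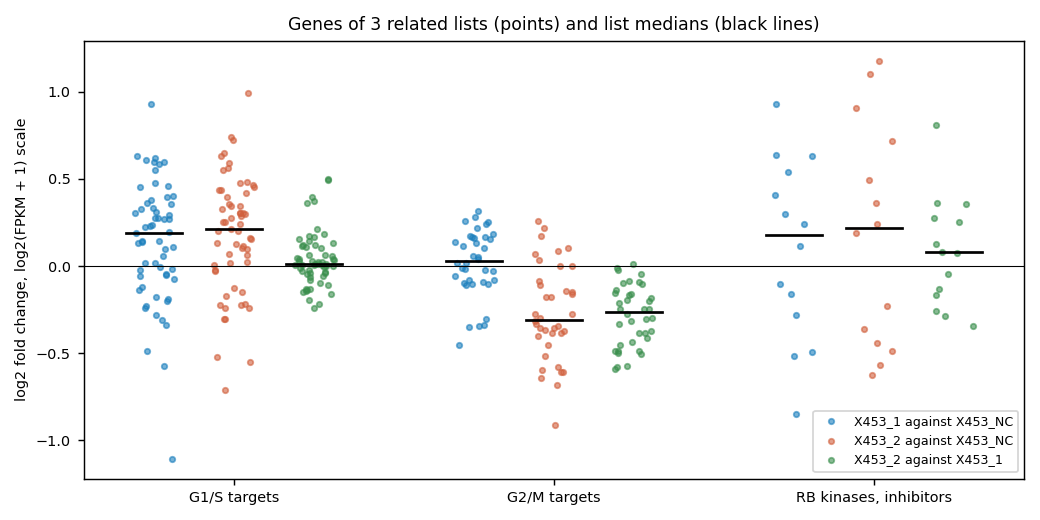
Log2 fold change (y axis) of each tested gene of the G1/S list, the G2/M list and the list of RB kinases and inhibitors in the 3 comparisons, with the list median as a black line. The G1/S medians are 0.19 and 0.21 against X453_NC, and the G2/M median is 0.03 in X453_1 and -0.31 in X453_2.

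Pro-apoptotic genes that E2F1 can induce did not follow 1 direction. Of 11 genes, 8 were tested, of which 5 rose and 1 fell in X453_1, and 3 rose and 3 fell in X453_2. The shares of all tested genes were 32.1% that rose and 32.3% that fell in X453_1, and 26.0% and 44.8% in X453_2. BBC3 (PUMA) went from 15.95 ± 1.501 FPKM in X453_NC to 3.62 ± 0.851 in X453_1 and 6.41 ± 1.22 in X453_2 (log2 -1.89 and -1.20, adjusted P = 2.81e-06 and 4.14e-05). PMAIP1 (NOXA) went the other way, from 11.0 ± 0.202 to 19.8 ± 0.607 and 24.95 ± 2.44 FPKM (0.79 and 1.11, adjusted P = 2.89e-06 and 2.16e-07).

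The genes whose log2(FPKM + 1) over the 9 libraries was most like that of E2F1 were PIM3 (Pearson r = 0.976), ING1 (0.972) and H1F0 (0.968). All of them stood highest in X453_2, PIM3 at a mean of 104.6 FPKM against 75.4 in X453_NC. For RB1 they were KMT2A (0.987), ARHGAP21 (0.986) and DDX52 (0.986), which stood highest in X453_1, KMT2A at 16.7 FPKM against 12.3 in X453_NC. These values describe 9 libraries in 3 groups and share their depth and scaling.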

How the data were processed

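The authors sequenced RNA on the BGISEQ-500 platform and deposited 1 table of FPKM per gene and library. The submitters' processing notes name Bowtie2 and the build GRCh37.p13, and the role of each tool is not given in the sources used here. The table holds each FPKM column 2 times with equal values, and the second copies, 9 columns of per-sample values, were not used. In addition, 4 lines without values were left out. Deposited fold changes, P values and q-values of the authors' own comparisons were not used. Groups came from the labels. FPKM were tested as log2(FPKM + 1) with limma 3.58.1 (lmFit, eBayes with a trend) in R 4.3.3, with all 9 libraries in the fit, Benjamini-Hochberg adjustment over 12884 genes and a filter of 1 FPKM on the mean. The script was tested on simulated data. Depth was estimated from the steps of low FPKM values of genes of 300 to 900 bases, and the fragments behind a gene from its FPKM, the longest transcript and that depth. GC content was that of the longest GENCODE transcript, found for 11190 tested genes and all 10 members. Tables were handled in Python 3.11.15 with pandas 2.3.3. Alternatives were another added value, other filters, median ratio scaling, each pair of groups alone, a replicate block, each library left out, other call criteria and a GC correction. From each related list the text names the 2 genes with the largest mean change among those called in the same direction in both knockdown comparisons, or, where there was none, the 2 with the highest FPKM. For E2F1 and RB1 it names the 3 most alike genes. RBL2 was added as the remaining pocket protein. Of the marker lists, genes that define the labelled line were named, and some genes that these rules would name are not reported here. The members and lists were chosen with earlier results of these data known.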

Additional observations from a re-analysis of the deposited data

Results flagged for a closer look

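The levels of 2 members differed between the groups X453_1 and X453_2, past both the fold limit and an adjusted P of 0.05 in the direct comparison, in which 2.19% of all tested genes were called higher and 5.45% lower. E2F1 was higher in X453_2 than in X453_1 by a log2 difference of 0.462 ± 0.076 (SE, limma, adjusted P = 0.00118), in 3 of 3 libraries. E2F3 was lower in X453_2 than in X453_1 by a log2 difference of -0.519 ± 0.054 (adjusted P = 0.000104), also in 3 of 3 libraries. Both stayed called without any 1 library, with ranges of 0.43 to 0.52 for E2F1 and -0.54 to -0.49 for E2F3.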

How the results depend on the processing

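With limma, 0 members were called in X453_1 against X453_NC, 3 in X453_2 against X453_NC and 2 in X453_2 against X453_1. Of all 12884 tested genes, 3436, 4385 and 984 were called in the same order. With no fold limit the member counts were 6, 9 and 5. By the adjusted P, 6, 9 and 5 members passed, beside 8296, 9121 and 5675 of all tested genes. With a fold of at least 2 the member counts were 0, 0 and 0, and 6, 9 and 5 members had an unadjusted P of at most 0.05. With 0.1 FPKM added, 2 members were called in X453_1 (E2F5 and E2F7), and with the GC correction, chosen with results of these data known, 1 was (E2F5). In X453_2 against X453_NC, 4 members were called, with E2F7 added, in each of 3 settings: 0.1 FPKM added, median ratio scaling and the GC correction. Shares of all tested genes called under these other settings and at a fold of 2 were not worked out. Leaving out 1 library gave 0 to 1 calls in X453_1, 2 to 3 in X453_2 and 2 each time between the knockdown groups. The activator minus repressor difference was -0.067 in X453_1 and 0.081 in X453_2, and 0.074 and 0.188 with the GC correction. Leaving out 1 library gave -0.097 to -0.021 and 0.064 to 0.109. The correction turned E2F1 in X453_1 to 0.234 and E2F4 to 0.031 in X453_1 and 0.123 in X453_2, and the cause was not tested. Replicate labels repeat across groups, but same-numbered libraries did not deviate together (r from -0.239 to 0.104). With these labels as a replicate block the counts of calls were 0, 3 and 2, and E2F4 in X453_2 (-0.108, adjusted P = 0.0519) no longer passed. Of the 270 member values with 1 library left out, 258 kept their side of the threshold, of which 248 also kept their sign, 11 no longer passed and 1 newly passed. The 10 that changed sign had a log2 fold change of at most 0.011 in size with all libraries. The 5 FPKM filter left fewer members to test. Depth limits E2F5, E2F8 and E2F6 most.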
